A study of Mus musculus with 22 samples.

Results

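The genes described here carry out glycolysis or are induced when oxygen is low, and they were followed through 22 mouse mammary cell lines. The set holds 34 genes in 4 groups: 16 glycolytic enzymes, 4 transporters of glucose or lactate, 12 other genes induced by hypoxia and the 2 hypoxia-inducible factor subunits Hif1a and Epas1. A gene was taken as measured when the value table had an entry annotated with its symbol alone, and where a gene had several entries the one with the highest mean over the 22 arrays was used. Of the 34 genes, 29 were measured, out of 14860 named genes in all. These were 11 enzymes (Hk1, Hk2, Pfkl, Pfkp, Pfkm, Pfkfb3, Aldoa, Aldoc, Tpi1, Eno2 and Ldhb), the 4 transporters (Slc2a1, Slc2a3, Slc16a1 and Slc16a3), the 12 hypoxia-induced genes (Pdk1, Car9, Car12, Egln1, Egln3, Ndrg1, Adm, Bnip3, Bnip3l, Ankrd37, Kdm3a and Higd1a) and both factor subunits. Gpi1, Pgk1, Eno1 and Ldha had no entry of their own among those used here, and Pgam1 had only an entry shared with Mdh1, so these 5 enzymes have no value below. Ldhb had a second entry with a mean of 5.75, against 7.03 for the entry used, and the values of the 2 entries correlated at r = 0.46 over the lines.

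Glycolysis splits glucose into pyruvate in the cytosol, and lactate dehydrogenase turns pyruvate into lactate, which leaves the cell through monocarboxylate transporters. When oxygen is plentiful, prolyl hydroxylases of the Egln family mark the alpha subunits of hypoxia-inducible factor for destruction. When oxygen falls, the subunits persist and switch on glucose transporters, most glycolytic enzymes and a second set of genes for pH control, mitochondrial turnover and the hydroxylases themselves. In tumours the same enzymes are also known targets of the transcription factor Myc, whose E-box binding sequence contains a core of the hypoxia response element.

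RNA was measured on mouse exon arrays, with 1 array per line and lines harvested while growing in culture. Values are on the log2 scale, so a difference of 1 is a doubling. Where several lines go back to 1 tumour or ancestral line, their values were averaged, which left 17 lineages as the replicates. There were 5 lineages from tumours of mice carrying Myc under the mouse mammary tumour virus (MMTV) promoter, which is active in mammary epithelium. The lines 6DT1, cMyc and Myc83 carried Myc alone and grew in low-glucose medium. The lines MVT1 and MVT2 carried Myc together with VEGF, also under MMTV, and grew in high-glucose medium with non-essential amino acids. The other genetically engineered mouse (GEM) lines formed 5 lineages. Lines 2508 and 2855 came from 1 invasive carcinoma of an MMTV-Wnt mouse and grew in DMEM/F12 with insulin and epidermal growth factor. M6 came from a C3(1)/Tag mouse, which expresses SV40 T antigen, and M6C came from a lung metastasis of M6. DB7 came from a transplanted MMTV-PyVT Db tumour, whose mutant polyoma middle T antigen is uncoupled from PI3K. Line 780 came from a BRCA-/- tumour with Cre under the whey acidic protein promoter, and its p53 genotype is given as +/+ in one label and as +/- in another. Line p1522 came from a p53-/- tumour of an MMTV-cre mouse. M6, M6C, DB7, 780 and p1522 grew in high-glucose medium, and 780 shared the medium of MVT1 and MVT2. The 5 lineages from spontaneous tumours were 67NR, 4T07 and 4T1 from 1 BALB/cfC3H tumour, D2A1 and D20R from the D2 hyperplastic nodule line, EMT6, the sarcomatoid clone F311, and TSA. The 2 immortalized lineages from non-tumour mammary gland were EPH4, a subclone carrying an empty retroviral vector, and NMUMG. The media of the spontaneous and immortalized lines are not stated.

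Array medians lay between 6.78 and 7.17. Epithelial character varied widely between lines: Cdh1 lay below its own array's median in 11 of 22 lines and Epcam in 13, Krt18 did so in 2, and the mesenchymal gene Vim did so in 0. All 5 endothelial markers, 3 of 5 measured immune markers and 3 of 4 adipocyte markers lay below the array median in every line. The exceptions were the immune markers Cd3e and Cd68 and the adipocyte marker Plin1. Plin1 lay above the median in every line, from 7.34 to 8.35. Cd68 was at 10.56 in MVT1, 10.06 in MVT2, 9.72 in cMyc, 8.98 in 6DT1 and 7.28 in Myc83. In the lines without a Myc transgene it ran from 6.46 in M6C to 8.62 in EMT6, and the reason was not tested. RNA of Myc itself averaged 11.50 ± 0.40 (SD, n = 5) in the Myc lineages, against 10.61 ± 0.87 (SD, n = 5) in lineages of other GEM origin. Single lines overlapped, from 10.99 to 11.94 in the Myc lines and from 9.16 to 11.45 in the others, and whether the array entry reads the transgene was not tested.

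Promoter sequences of 30 of the 34 genes, including the 5 without a measured value, were read from RefSeq's promoter table for assembly GRCm38.p6. No promoter is given here for Slc2a3, Ndrg1, Bnip3l and Epas1. The 250 bases before each transcription start were searched on both strands for the cores of the hypoxia response element, ACGTG and GCGTG, and for the E-box CACGTG, which contains the first core. At least 1 start with either core was found in 26 of 30 genes (86.7%), against 41.5% of 27025 genes in the table. ACGTG occurred in 16 genes (53.3%, against 18.5% of all genes) and CACGTG in 6 (20%, against 6.86%). Counted by start site, 34 of 44 promoters (77.3%) held a core, against 38.6% of 32851. Gpi1, Tpi1, Eno2 and Car12 held neither core in this window. These matches describe letters in the sequence and show no binding. The 5 promoters printed here are examples that each hold at least 1 core, and they are not a list of the genes that differ below. They belong to the glucose transporter Slc2a1, the phosphofructokinases Pfkp and Pfkl, the hydroxylase Egln3 and the mitophagy gene Bnip3. Each runs 5′ to 3′ along the gene's strand up to the base before its start, and capitals mark core matches on either strand, so that CACGT and CACGC are the same cores read on the opposite strand.
Slc2a1 (chr4:119108495-119108744, plus strand): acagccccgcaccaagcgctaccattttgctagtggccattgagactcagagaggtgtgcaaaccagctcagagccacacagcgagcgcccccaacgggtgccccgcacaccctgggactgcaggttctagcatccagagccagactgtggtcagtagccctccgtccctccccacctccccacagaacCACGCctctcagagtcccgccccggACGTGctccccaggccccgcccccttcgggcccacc
Pfkp (chr13:6648772-6649021, minus strand): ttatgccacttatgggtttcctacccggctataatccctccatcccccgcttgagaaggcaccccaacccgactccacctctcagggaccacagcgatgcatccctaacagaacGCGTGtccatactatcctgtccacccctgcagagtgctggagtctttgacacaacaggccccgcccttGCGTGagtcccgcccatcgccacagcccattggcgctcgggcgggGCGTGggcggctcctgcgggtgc
Pfkl (chr10:78009808-78010057, minus strand): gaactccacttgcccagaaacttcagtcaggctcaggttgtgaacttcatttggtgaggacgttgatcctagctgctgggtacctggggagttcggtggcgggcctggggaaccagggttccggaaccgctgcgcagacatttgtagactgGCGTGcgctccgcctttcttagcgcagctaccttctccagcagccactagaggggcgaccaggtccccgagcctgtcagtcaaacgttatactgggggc
Egln3 (chr12:54203875-54204124, minus strand): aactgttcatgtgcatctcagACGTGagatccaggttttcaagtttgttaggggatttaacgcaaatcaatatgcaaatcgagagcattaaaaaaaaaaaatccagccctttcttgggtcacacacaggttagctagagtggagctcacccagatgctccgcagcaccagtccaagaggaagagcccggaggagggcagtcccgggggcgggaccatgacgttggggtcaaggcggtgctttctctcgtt
Bnip3 (chr7:138909507-138909756, minus strand): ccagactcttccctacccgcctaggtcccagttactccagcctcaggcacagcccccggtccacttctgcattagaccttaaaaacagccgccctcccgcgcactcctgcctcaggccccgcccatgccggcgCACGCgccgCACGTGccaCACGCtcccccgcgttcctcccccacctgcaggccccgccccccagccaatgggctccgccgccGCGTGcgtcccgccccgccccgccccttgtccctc
Slc2a1 held 2 matches, Pfkp 3, Pfkl 1, Egln3 1 and Bnip3 5, where the single E-box of Bnip3 counts on both strands.

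Across the 22 lines the widest spread was found in 3 genes that are no enzymes of glycolysis and in 1 that is. The SD over lineages was 1.83 for Egln3, a hydroxylase that is itself a target of the factor it restrains, larger than that of 99.7% of the 16755 tested probe sets. It was 1.59 for Slc16a3, the lactate exporter MCT4, 1.27 for the membrane carbonic anhydrase Car12 and 1.15 for Pfkp, the platelet-type phosphofructokinase. In all, 11 of 29 members had an SD above the 90th percentile of tested probe sets. Aldoa, the main aldolase, and Tpi1, triosephosphate isomerase, had SDs of only 0.23 and 0.28. In every line 13 members lay above the median of their own array, while Car9, a carbonic anhydrase, and Ankrd37, an ankyrin-repeat protein, lay below it in all 22 lines. Car9 ranged from 5.21 in 780 to 6.80 in Myc83 and Ankrd37 from 5.38 in 780 to 6.81 in 2855.

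**Figure D1:**
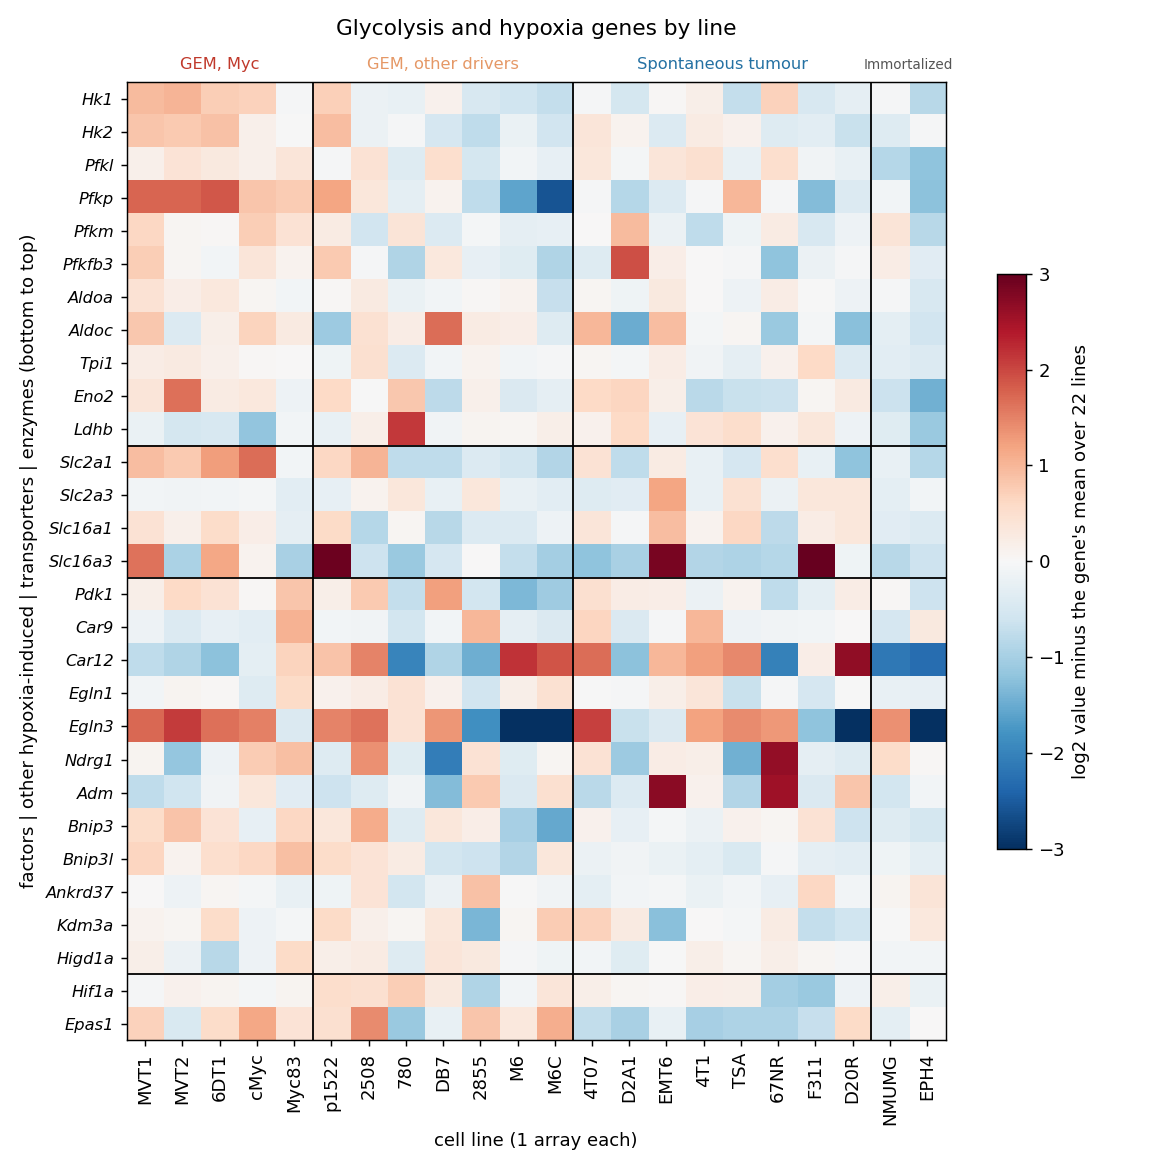
Each row is 1 of 29 measured genes and each column 1 line (1 array), and colour gives the log2 value minus the gene's mean over the 22 lines, with colours clipped at 3 either way. Pfkp, Slc2a1 and Hk1 are above their means in most Myc lines, EPH4 is below the mean for every enzyme, and Egln3, Slc16a3 and Car12 show the strongest contrasts between single lines.

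Glucose enters the cell through Slc2a1 (GLUT1) and Slc2a3 (GLUT3). Slc2a1 was at 12.91 in MVT1, 12.76 in MVT2, 13.24 in 6DT1, 13.65 in cMyc and 11.89 in Myc83. In the 7 other GEM lines its lowest value was 11.12, the median 11.44 and the highest 13.00, and in the 8 spontaneous lines these were 10.77, 11.75 and 12.49. It was at 11.13 in EPH4 and 11.76 in NMUMG. Thus 4 of 5 Myc lines lay above all spontaneous and immortalized lines, and the other GEM lines 2508 (13.00) and p1522 (12.61) reached into the Myc range. Slc2a3 lay below its array's median in 21 of 22 lines, with EMT6 (7.22) as the exception.

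Hexokinases trap glucose by phosphorylation. Hk1 was at 10.42 in MVT1, 10.48 in MVT2, 10.19 in 6DT1, 10.15 in cMyc and 9.42 in Myc83. The other GEM lines ran from 8.75 over a median of 9.23 to 10.18, the spontaneous lines from 8.76 over 9.31 to 10.16, and EPH4 and NMUMG were at 8.63 and 9.42. Myc83 stood apart from the other Myc lines, and p1522 and 67NR reached the level of cMyc. Hk2, the hexokinase most often linked to tumours, was at 9.28 in MVT1, 9.21 in MVT2, 9.32 in 6DT1, 8.60 in cMyc and 8.43 in Myc83, and its highest value of all lines was 9.36 in p1522.

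Phosphofructokinase commits glucose carbon to glycolysis, and its 3 genes behaved differently. Pfkp, the platelet type, was at 10.69 in MVT1, 10.68 in MVT2, 10.79 in 6DT1, 9.76 in cMyc and 9.70 in Myc83. Among the other GEM lines it ran from 6.34 in M6C over a median of 8.65 to 10.12 in p1522, among the spontaneous lines from 7.64 over 8.71 to 9.93, and it was at 7.71 in EPH4 and 8.84 in NMUMG. MVT1, MVT2 and 6DT1 therefore lay above every other line, and M6C lay lowest, 4.44 below 6DT1. Pfkl, the liver type, spread far less and was low in the immortalized lines, as described with that comparison. Pfkm, the muscle type, ran from 7.91 in EPH4 to 9.68 in D2A1. Pfkfb3, which makes the allosteric activator of phosphofructokinase, was highest in D2A1 as well, at 9.41, with the other 21 lines between 6.26 and 8.26. For Pfkp the deposited value was identical in 4T07, 4T1 and 67NR, for Hk1 in 4T07, Myc83 and NMUMG, and for Hk2 in 780 and EPH4. Such ties occurred in 1562 of the tested probe sets (9.32%), and their cause was not tested.

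In the lower part of the pathway, Aldoa ran only from 12.35 in M6C to 13.48 in MVT1 and Tpi1 from 12.64 in EPH4 to 13.65 in F311. Aldoc, the brain-type aldolase, ran from 5.95 in D2A1 to 9.13 in DB7, and Eno2, the neuronal enolase, from 5.48 in EPH4 to 8.57 in MVT2. Ldhb, the lactate dehydrogenase subunit that favours lactate oxidation, stood at 9.14 in 780 and between 5.84 and 7.64 in all other lines. Lactate leaves through Slc16a1 (MCT1), which ran from 9.55 in 2508 to 11.34 in EMT6, and through Slc16a3. Slc16a3 was at 11.11 in F311, 10.45 in p1522, 10.35 in EMT6, 9.14 in MVT1 and 8.67 in 6DT1, and its median over the 22 lines was 6.83. These 5 lines came from 3 different groups, so the high state of Slc16a3 did not follow a group label.

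The other hypoxia-induced genes did not rise and fall as a unit between lines. Egln3 was at 4.90 in M6C, 5.09 in M6, 5.40 in D20R and 5.84 in EPH4, and its median over the 22 lines was 10.21, with the highest value, 11.05, in MVT2. Car12 was highest in D20R (10.86), M6 (10.35) and M6C (10.07), which are 3 of the 4 lines lowest for Egln3, and lowest in EPH4 (5.91). Ndrg1, a stress-induced differentiation gene, was at 12.27 in 67NR against 7.57 in DB7, and Adm, which encodes the vasodilator adrenomedullin, was at 7.93 in EMT6 and 7.75 in 67NR with a median of 4.86 over all lines. Pdk1, which shuts pyruvate out of the citric acid cycle, ran from 6.61 in M6 to 9.19 in DB7. Bnip3, a mitophagy receptor, ran from 8.09 in M6C to 10.73 in 2508. Egln1, the main hydroxylase, Higd1a, a mitochondrial protein, and Kdm3a, a histone demethylase, had ranges of 1.24, 1.39 and 2.14.

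The mean over a group of genes, each centred on its mean over the 22 arrays, summarises these patterns by line. For the 11 enzymes it was highest in MVT1 (0.61), MVT2 (0.48), 6DT1 (0.37), p1522 (0.27) and cMyc (0.26), and lowest in EPH4 (-0.77) and M6C (-0.59). By group it averaged 0.37 ± 0.18 (SD, n = 5) for Myc, -0.01 ± 0.27 (n = 5) for the other GEM lineages, -0.05 ± 0.10 (n = 5) for the spontaneous and -0.50 ± 0.39 (n = 2) for the immortalized lineages. The Myc lineages overlapped only with p1522 among all 12 remaining lineages. For the 12 other hypoxia-induced genes the highest lines were 2508 (0.61), Myc83 (0.42) and 4T07 (0.39) and the lowest EPH4 (-0.52) and M6 (-0.48). Their group means were 0.17 ± 0.15 (Myc, n = 5), -0.07 ± 0.29 (other GEM, n = 5), 0.00 ± 0.25 (spontaneous, n = 5) and -0.34 ± 0.25 (immortalized, n = 2), and the groups overlapped. The transporter mean was led by EMT6 (1.30), F311 (0.98) and p1522 (0.97), 3 lines with high Slc16a3. No test was made on these means, since the genes were chosen with results of these data known.

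**Figure D2:**
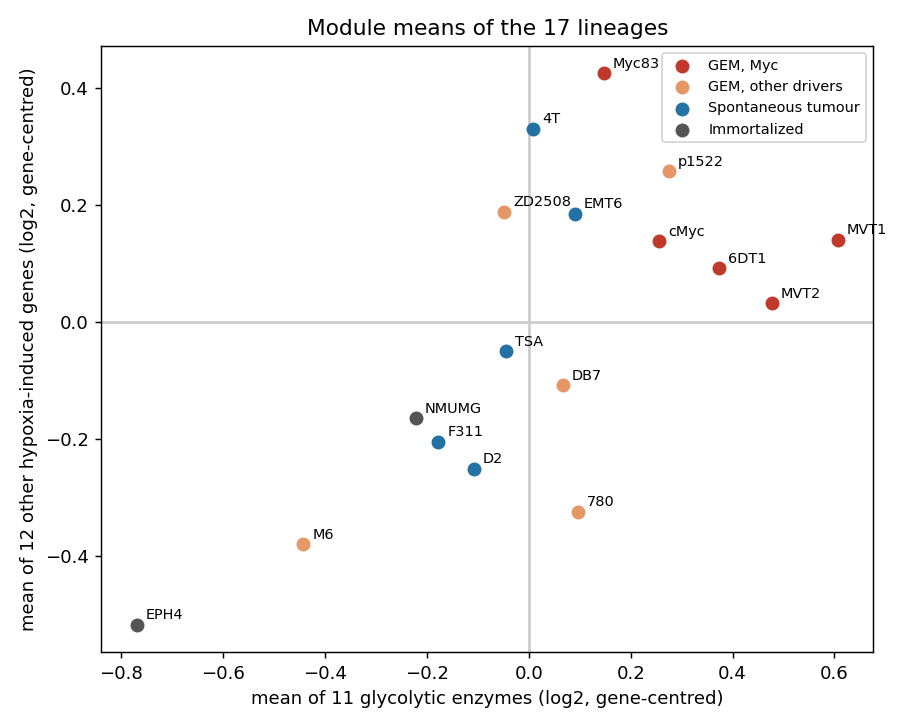
Each point is 1 of 17 lineages, placed by the mean of 11 glycolytic enzymes (horizontal, log2, gene-centred) and by the mean of 12 other hypoxia-induced genes (vertical, same scale), and coloured by group. MVT1 and MVT2 lie farthest right without being high on the vertical axis, Myc83 lies highest, and EPH4 and M6 lie at the lower left.

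Whether tumour lineages differed from immortalized ones was tested with limma in 1 fit of all 17 lineages, with GEM and spontaneous tumours weighted equally and p-values adjusted by Benjamini-Hochberg over all tested probe sets. The p-values measure the spread between lineages, with no repeat culture of any line. A change in every cell of a culture and a change in the share of cells expressing a gene cannot be told apart in these bulk values. Pfkl alone passed the adjusted threshold of 0.05. It was at 10.31 in MVT1, 10.57 in MVT2, 10.45 in 6DT1, 10.32 in cMyc and 10.51 in Myc83, and it ran from 9.63 over a median of 10.08 to 10.66 in the other GEM lines and from 9.93 over 10.30 to 10.67 in the spontaneous lines. EPH4 was at 8.95 and NMUMG at 9.29, and the lowest tumour lineage, 780, lay 0.47 above NMUMG, so the groups did not overlap. Tumour lineages averaged 10.26 ± 0.28 (SD, n = 15) and immortalized ones 9.12 ± 0.25 (SD, n = 2), a log2 difference of 1.13 (SE 0.22, 95% interval 0.67 to 1.59, 2.19-fold, adjusted p = 0.0337 by limma). The call rested on few lineages. Refitted without each lineage in turn, it held in 11 of 17 fits and was lost without 4T, 6DT1, cMyc, EMT6 or MVT1 (adjusted p between 0.0519 and 0.0574) and without EPH4 (difference 0.96, adjusted p = 0.302). Over all tested probe sets 0.298% passed, 0.113% in the direction of higher in tumours, and 1 of 29 members did so.

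Directions were counted without regard to the calls. Of the 29 members, 25 averaged higher in tumour lineages, where 54.4% of all tested probe sets did, and the median difference was 0.38 against 0.03 for all. All 11 enzymes averaged higher, with a median of 0.46, as did the 4 transporters, and 9 of 12 other hypoxia-induced genes did so with a median of 0.20. These counts depended on EPH4, 1 of the 2 immortalized lineages. Without it 22 of 29 members and 9 of 11 enzymes averaged higher, Pfkm stood at -0.37 and Pfkfb3 at -0.15, and Hk1 and Aldoa at 0.07 each. The median over the enzymes was 0.36 without EPH4 and 0.85 without NMUMG. At an unadjusted p under 0.05, 3 members differed, Pfkl, Eno2 and Car12, all higher, against 5.94% of tested probe sets in that direction. Car12 ran from 6.16 in 67NR over a median of 8.63 to 10.86 in D20R among the 20 tumour lines and was at 5.91 in EPH4 and 6.05 in NMUMG. Every tumour line thus lay above both immortalized lines, and the lowest tumour lineage did so by 0.16. The difference of 2.45 (SE 0.68, 5.45-fold, 95% interval 1.02 to 3.88) did not pass the adjustment (adjusted p = 0.129 by limma). Pfkl and Car12 were the 2 of 29 members whose groups did not overlap, against 1.88% of tested probe sets in this direction. Eno2 differed by 1.15 (SE 0.42, adjusted p = 0.267 by limma), with EPH4 at 5.48 and NMUMG at 6.26, and the tumour lines 4T1 (6.09), DB7 (6.12) and TSA (6.24) lay below NMUMG. Egln3 shows how far the immortalized lines themselves differed: it was at 5.84 in EPH4 and 10.32 in NMUMG, which left its difference of 1.08 with a 95% interval from -1.64 to 3.81, and with values of -1.16 without EPH4 and 3.32 without NMUMG. Egln3, Pfkm and Pfkp were the 3 of 29 members more than 1 apart between NMUMG and EPH4, against 9.47% of tested probe sets.

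The second question was how Myc lineages differ from GEM lineages with other drivers, tested by limma within these 10 lineages. No member passed the adjusted threshold, where 0.0119% of tested probe sets did. At an unadjusted p under 0.05, 6 of 29 members differed, against 5.41% of tested probe sets. Of these 5 were higher in Myc lineages, against 2.6% of tested probe sets: Pfkp, Slc2a1, Hk1, Pfkm and the mitophagy receptor Bnip3l. Ldhb alone was lower, against 2.81%. Pfkp averaged 10.32 ± 0.54 (SD, n = 5) in Myc and 8.67 ± 1.18 (SD, n = 5) in other GEM lineages, a difference of 1.65 (SE 0.50, 3.14-fold, unadjusted p = 0.00696, adjusted p = 0.788 by limma). Slc2a1 averaged 12.89 ± 0.65 against 11.73 ± 0.67 (n = 5 each), a difference of 1.16 (SE 0.37, 2.24-fold, adjusted p = 0.788 by limma). Hk1 averaged 10.13 ± 0.42 against 9.39 ± 0.52, a difference of 0.74 (SE 0.27, 1.67-fold, adjusted p = 0.824 by limma). For each of these 3 genes most Myc lineages were higher than most other GEM lineages, and p1522 lay inside the Myc range.

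Bnip3l was at 7.02 in MVT1, 6.49 in MVT2, 6.89 in 6DT1, 7.0 in cMyc and 7.28 in Myc83. Other GEM lines ran from 5.52 over a median of 6.65 to 6.95, spontaneous lines from 5.92 over 6.16 to 6.37, and EPH4 and NMUMG were at 6.10 and 6.25. All 5 Myc lines thus lay above all spontaneous and immortalized lines, while p1522 (6.95), 2508 (6.81), M6C (6.74) and 780 (6.65) lay within the Myc range. These are low values: all spontaneous and immortalized lines and MVT2 lay below the lowest array median of 6.78. The difference from the other GEM lineages was 0.57 (SE 0.22, adjusted p = 0.859 by limma). Ldhb was at 6.82 in MVT1, 6.50 in MVT2, 6.55 in 6DT1, 5.84 in cMyc and 6.94 in Myc83, and the other GEM lines ran from 6.82 over 7.11 to 9.14. The Ldhb difference was -0.91 (SE 0.41, adjusted p = 0.919 by limma), and the value of 780 stood far above the rest. Without 780 the Ldhb difference was -0.48. Pfkm differed by 0.45 (SE 0.20, adjusted p = 0.919 by limma).

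Directions between Myc and other GEM lineages were counted by gene group, with no test between the groups. Of the 11 enzymes 10 averaged higher in Myc lineages, with a median difference of 0.35, which was 0.23 without 780 and 0.53 without p1522, and Ldhb was the exception. Of the 12 other hypoxia-induced genes 7 averaged higher, with a median of 0.09, which was 0.04 without DB7 and 0.23 without the Wnt lineage. Over all 29 members 21 averaged higher, where 58.1% of tested probe sets did, and the median was 0.27 against 0.03, or 0.16 without 780. Egln3 had the largest difference among the hypoxia-induced genes, 1.48 (SE 0.93, adjusted p = 0.999 by limma), with 10.68 in MVT1, 11.05 in MVT2, 10.60 in 6DT1, 10.47 in cMyc and 8.53 in Myc83. For Egln3 the 4 Myc lines other than Myc83 lay above every other GEM lineage, of which p1522 was highest at 10.44, while single other GEM lines ran from 4.90 in M6C to 10.59 in 2508. The M6 lineage carried both the size and the rank of the Egln3 difference, which was 0.53 without it, below the 0.56 of Ndrg1 in the same fit. For Car12 the difference was -0.51 (SE 0.66, adjusted p = 0.999 by limma), with -0.0019 without M6 and -1.0 without 780, so that 1 lineage removed it.

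**Figure D3:**
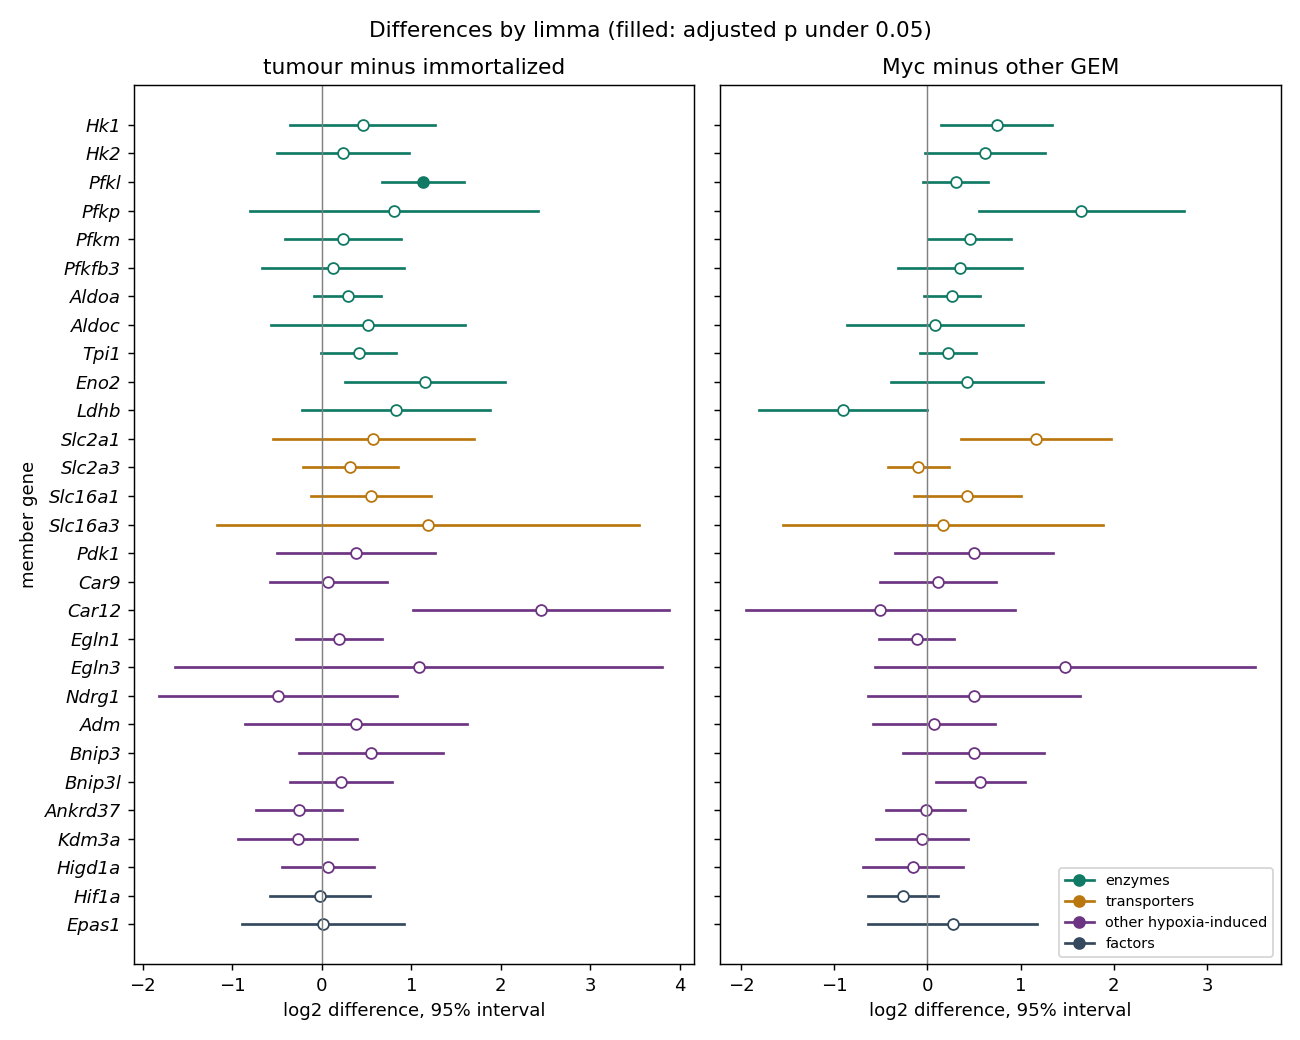
Log2 differences with 95% intervals from limma for 29 genes, tumour minus immortalized lineages (left) and Myc minus other GEM lineages (right), coloured by gene group, with filled points for an adjusted p under 0.05. Only Pfkl on the left is filled, at 1.13, and on the right Pfkp (1.65) and Slc2a1 (1.16) are farthest above 0 among genes whose interval does not include it.

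Line p1522, which has lost p53 and carries no Myc transgene, was the highest of the other GEM lineages for Pfkp, Slc2a1, Hk1, Hk2 and Bnip3l. Without it, Pfkp differed by 2.01, Slc2a1 by 1.39, Hk1 by 0.94 and Hk2 by 0.87, and the lowest adjusted p of a member was 0.187 by limma. Calls past the adjusted threshold over all tested probe sets also rose in that fit, from 2 to 15. Without M6 the Pfkp difference was 1.20. When each of the 10 lineages was left out in turn, no member passed the adjusted threshold in any fit. The medium differed with the driver in part, since 3 of 5 Myc lines and none of the others grew in low glucose. Among high-glucose lineages alone, MVT1 and MVT2 against M6, DB7, 780 and p1522, the Slc2a1 difference was 1.25, that of Pfkp 2.02 and that of Hk1 1.00. Without the Wnt lineage, whose medium holds insulin and epidermal growth factor, 7 members differed at an unadjusted p under 0.05, against 14.4% of tested probe sets, and 0 passed the adjustment by limma. In the high-glucose fit 5 members differed at an unadjusted p under 0.05, against 9.02% of tested probe sets, and 0 passed the adjustment, against 0.00597%. MVT1 and MVT2 carry VEGF as well as Myc, so in this subset Myc, VEGF and their combination cannot be told apart. The 2 lines exceeded 780, the line grown in the same medium, by 2.04 for Pfkp, 1.60 for Slc2a1, 1.22 for Hk1 and 1.30 for Pfkfb3 on average, and differed from it by -2.48 for Ldhb. Within the Myc group, the low-glucose lines averaged 12.93 for Slc2a1 and the high-glucose lines 12.84, while for Egln3 the means were 9.87 and 10.86 and for Ndrg1 10.14 and 9.11. All low-glucose Myc lines carry Myc alone and the high-glucose ones Myc with VEGF, so medium and VEGF cannot be told apart here. The lower Egln3 mean came from Myc83 (8.53), with 6DT1 at 10.60 and cMyc at 10.47 close to MVT1 at 10.68.

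**Figure D4:**
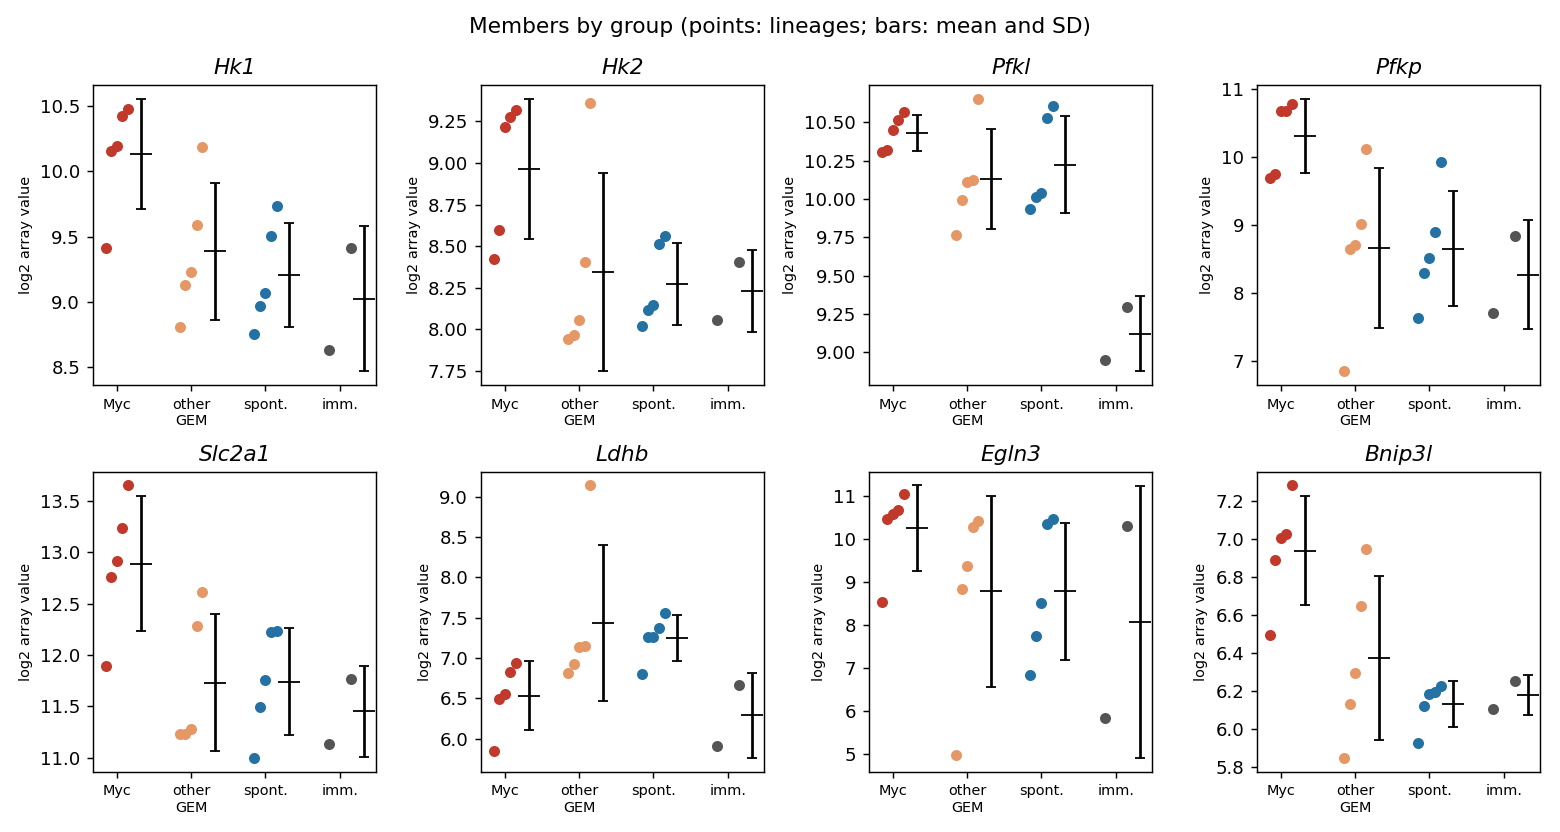
Log2 values of 8 genes by group, with 1 point per lineage (GEM with Myc, other GEM, spontaneous tumour, immortalized) and the mean ± SD beside each group. Pfkl separates the 2 immortalized lineages from all others, and for Hk1, Pfkp and Slc2a1 the Myc lineages lie high with 1 or more other GEM lineages among them.

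GEM and spontaneous tumour lineages were compared in the same fit as tumour and immortalized lineages. No member passed the adjusted threshold, against 0.113% of tested probe sets, and 4 of 29 differed at an unadjusted p under 0.05, against 7.72%. Epas1, the factor subunit first known from endothelium, averaged 7.57 in GEM and 6.65 in spontaneous lineages, a difference of 0.92 (SE 0.31, adjusted p = 0.379 by limma). Its lines ran from 6.13 in 780 to 8.66 in 2508 among GEM and from 6.24 in 4T1 to 7.82 in D20R among spontaneous lines, so the groups overlapped. With Bnip3l (0.53) and Kdm3a (0.50) it made 3 members higher in GEM lineages, against 3.58% of tested probe sets, and Slc2a3 (-0.43) was the 1 lower, against 4.14%. By direction alone, 18 of 29 members averaged higher in GEM lineages, against 40.7% of tested probe sets. Hif1a, the widely expressed subunit, ran from 9.63 in F311 to 11.49 in 780 and differed by 0.40 (SE 0.19, adjusted p = 0.653 by limma). Without F311 the Hif1a difference was 0.18, and without EMT6 those of Kdm3a and Slc2a3 were 0.28 and -0.22.

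How members varied together over the 17 lineages is given as a description, since all values of a lineage come from the same 1 to 3 arrays. The enzyme mean and the mean of the other hypoxia-induced genes correlated at r = 0.67 (Spearman 0.58), and at r = 0.55 without EPH4 and MVT1. The second mean includes Egln3, the member with the widest spread, and the correlation without Egln3 was not computed. Single genes were less alike. The median correlation was 0.36 over 55 pairs of enzymes, of which 43 were above 0, but 0.07 over 66 pairs of other hypoxia-induced genes, of which 35 were above 0, and 0.08 over 132 pairs between these groups.

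Egln3 ran with the enzyme mean and not with the mean of its own group. It correlated at r = 0.78 with the enzyme mean (Spearman 0.77, and r = 0.56 without EPH4 and M6). With the mean of the other 11 hypoxia-induced genes it correlated at r = 0.02. Within its own group it ran with Bnip3 (r = 0.62) and Pdk1 (0.58), but not with Car12 (-0.26). Bnip3 (0.66), Bnip3l (0.63) and Pdk1 (0.56) also correlated with the enzyme mean, against 0.52, 0.45 and 0.42 with their own group. Without the 2 lineages farthest from each gene's median, only Bnip3l kept this order clearly (0.60 against 0.29). Bnip3 was then at 0.53 with both means, and Pdk1 at 0.57 with the enzymes and 0.59 with its own group. The enzyme closest to Egln3 was Pfkp, at r = 0.84 (Spearman 0.90), and at r = 0.74 without EPH4 and M6. Only 0.0179% of tested probe sets matched Egln3 at least as closely as Pfkp did. Hk1 and Pfkp correlated at r = 0.80 and Slc2a1 with the enzyme mean at r = 0.71. Among the hypoxia-induced genes the closest pair was Pdk1 and Bnip3, both acting on mitochondria, at r = 0.72 (Spearman 0.60), and at r = 0.53 without M6 and MVT2. RNA of the factor subunits ran with neither group, at r = 0.26 with the enzyme mean and 0.03 with the hypoxia-gene mean for Hif1a, and at 0.16 and 0.29 for Epas1. The factor is controlled mainly through protein stability, which arrays do not measure.

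Epithelial markers moved with some of these values. The mean of the 10 measured of 11 epithelial markers ran from 6.69 (cMyc) to 8.69 (Myc83) in Myc lines, from 6.25 (p1522) to 10.14 (M6) in other GEM lines, from 6.13 (67NR) to 9.33 (4T1) in spontaneous lines, and was 7.96 in NMUMG and 9.18 in EPH4. It correlated at r = -0.65 with the enzyme mean (Spearman -0.49, and r = -0.61 without EPH4 and MVT1), at -0.64 with Pfkp and at -0.59 with Egln3. The last was -0.21 without EPH4 and M6. The mean of the 6 mesenchymal markers correlated at r = 0.48 with the enzyme mean and at 0.57 with Egln3. Without the same lineages these were 0.35 and 0.15. Myc83 was the only Myc line with high Cdh1 (10.84, against 6.55 to 6.73 in the other 4). It was also the Myc line lowest for Hk1, Slc2a1 and Egln3, and narrowly for Pfkp (9.70, against 9.76 in cMyc). Its Hk1 value was identical to that of 4T07 and NMUMG. Some other markers went the other way from Cdh1. Myc83 was the Myc line lowest for Krt18 (8.12, against 10.19 to 10.92) and Krt19 (5.22, against 5.68 to 8.81). It also had the highest mesenchymal mean of the Myc lines (10.31). The part of epithelial character in the differences between groups was not tested.

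Several members differed strongly between lines of shared origin. These are differences of single arrays with no test. The shares of all tested probe sets set beside the counts are not matched for spread. Members were chosen with results of these data known, and 11 of 29 had an SD over lineages above the 90th percentile. Between 2508 and 2855, from 1 Wnt carcinoma, 10 of 29 members (34.5%) differed by more than 1, against 5.28% of tested probe sets. Line 2508 was higher for Egln3 (10.59 against 7.11), Car12 (9.67 against 6.72), Kdm3a (8.82 against 7.30), Slc2a1 (13.00 against 11.57), Hif1a (11.22 against 9.84) and Pdk1 (8.75 against 7.41), and for Pfkp and Bnip3l, and lower for Adm and Car9. The same lines differed in Cdh1 (7.0 in 2508, 10.65 in 2855) and Epcam (6.20 and 10.79). Of the measured epithelial markers, only Krt5 (12.19 in 2508, 6.54 in 2855) and Krt14 (12.08 and 10.12) were higher in 2508. Both lines were among the 3 arrays with the smallest SD over all values. Their mean is the Wnt lineage, so its value of 0.19 for the hypoxia-gene mean averages 0.61 and -0.23.

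In the 4T family, 8 of 29 members differed by more than 1 between 4T07 and 67NR and 8 between 4T1 and 67NR, against 10.2% and 12.8% of tested probe sets. Car12 was at 6.16 in 67NR, 9.87 in 4T07 and 9.41 in 4T1, and Hif1a at 9.73, 10.90 and 10.94. Ndrg1 was at 12.27, 10.08 and 9.82 and Adm at 7.75, 4.40 and 5.35 in the same order. The line that does not disseminate, 67NR, was therefore low in Car12 and Hif1a and high in Ndrg1 and Adm against both relatives. Between 4T1 and 4T07 only 2 members differed by more than 1, against 3.18%. D20R and D2A1 differed in 6 members, against 4.32%, with Car12 at 10.86 and 6.95, Egln3 at 5.40 and 8.28 and Pfkfb3 at 7.43 and 9.41. M6C and its parent M6 differed in 2, against 1.57%, with Pfkp at 6.34 and 7.35. MVT1 and MVT2, of the same genotype and medium, differed in 5, against 2.02%, chiefly Slc16a3 (9.14 and 6.55) and Eno2 (7.27 and 8.57).

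**Figure D5:**
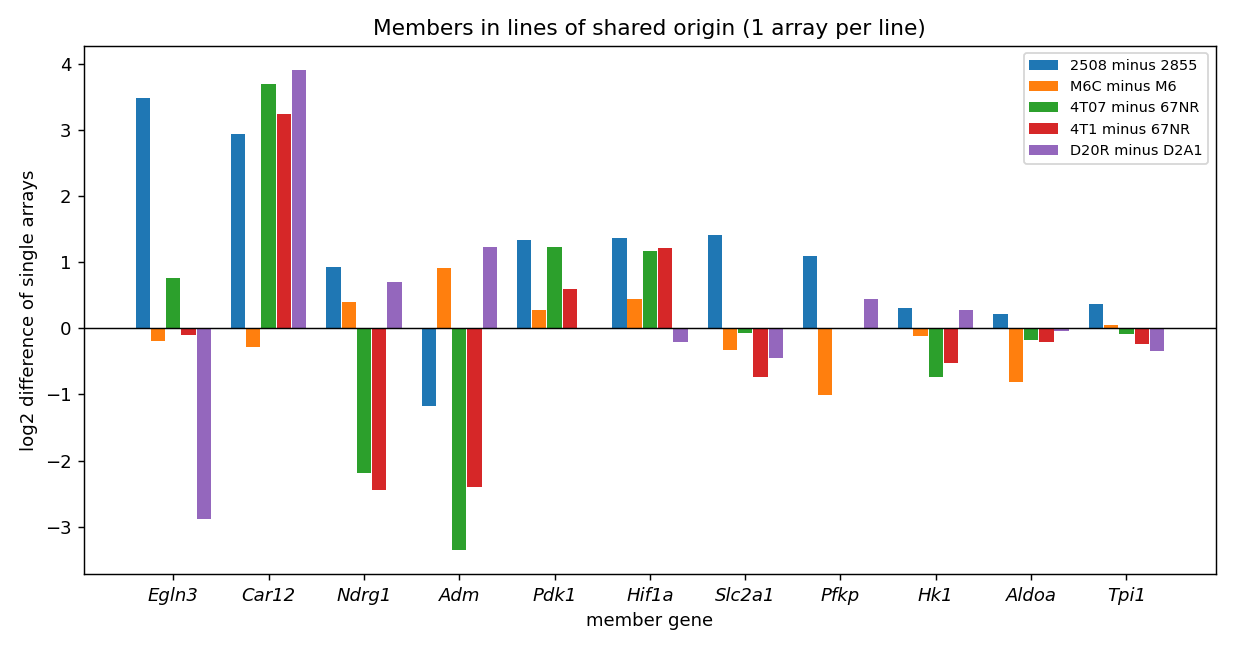
Log2 differences between single arrays of related lines for 11 genes, with 1 bar per pair and no error, since each line had 1 array. Car12 differs by 2.94 to 3.91 in 4 of 5 pairs and Egln3 by 3.48 and -2.88 in 2 of them, while the bars for Tpi1 and Hk1 stay within 1.

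Further genes of these pathways, from lists also chosen with results of these data known, held no member past the adjusted threshold in the 3 comparisons. Of 19 measured further glycolysis genes, 15 averaged higher in Myc than in other GEM lineages, with a median of 0.07. Over all tested probe sets 58.1% did so, with a median of 0.03. Eno3, the muscle enolase, had the largest difference, with 11.24 ± 0.40 (n = 5) against 8.95 ± 1.37 (n = 5), a difference of 2.29 (SE 0.55, unadjusted p = 0.00154, adjusted p = 0.643 by limma). Of 44 measured further hypoxia-induced genes, 23 averaged higher in Myc lineages, with a median of 0.04, so this list was near all tested probe sets. Plod1, a collagen lysyl hydroxylase, differed by 1.05 (SE 0.28, adjusted p = 0.783 by limma). Among 15 oxygen-sensing genes and factor partners, 11 averaged lower in Myc lineages, with Elob, an elongin subunit of the ubiquitin ligase that removes the factor, at 5.11 ± 0.17 against 5.88 ± 0.32 (n = 5 each, difference -0.77, adjusted p = 0.524 by limma). Elob was the 1 gene of that list whose groups did not overlap, against 0.376% of tested probe sets in that direction. Both Elob means lay below the lowest array median of 6.78, so this concerns low values.

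In the comparison of tumour and immortalized lineages, 9 of 19 further glycolysis genes and 29 of 44 further hypoxia-induced genes averaged higher, with medians of -0.02 and 0.08. Over all tested probe sets 54.4% averaged higher, with a median of 0.03. Thus the median of 0.46 of the 11 member enzymes was not seen in the further glycolysis list. Of 15 citric acid cycle genes 12 averaged higher, with Idh3g, a subunit of isocitrate dehydrogenase, at 11.01 ± 0.17 (n = 15) against 10.32 ± 0.31 (n = 2, difference 0.72, adjusted p = 0.0543 by limma). Of 6 pentose phosphate genes 5 averaged lower, led by the epimerase Rpe (-0.66, adjusted p = 0.0930 by limma). Rpe averaged higher in GEM than in spontaneous lineages, at 9.36 ± 0.21 (n = 10) against 8.75 ± 0.21 (n = 5), a difference of 0.61 (SE 0.12, adjusted p = 0.0549 by limma). Of 7 measured genes of pyruvate dehydrogenase and its control, 4 averaged higher in tumour lineages and 3 in Myc lineages, and 0 differed at an unadjusted p under 0.05 by limma in the 3 comparisons.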

How the data were processed

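The 22 cell lines were each profiled on 1 mouse exon array. The authors deposited a table of 1 value for each transcript cluster on each array, and these were read as log2 values because they run from 2.74 to 13.9; no header or label names the scale. Per the submitters' processing notes, GCOS and genome build mm9 were used, while background correction, probe summarization and normalization between arrays are steps not given in the sources used. The table's values were used as deposited, with no further normalization. Of 23332 entries, the 16755 that the platform annotation numbers as transcript clusters were tested and 6577 were left out. Of those tested, 14996 had 1 gene symbol, 1019 several and 740 none, and no gene is named from an entry with several symbols. All 29 measured members matched a gene in RefSeq's table for GRCm38.p6, whose promoters were read by symbol and which is not the build of the processing notes. The number of table columns that belong to no sample was 0. The number of arrays limits the precision.

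Lines of 1 origin were averaged into 17 lineages. Differences were fitted over all tested probe sets with limma 3.58.1 (lmFit and eBayes, R 4.3.3) and adjusted by Benjamini-Hochberg at 0.05. The tumour contrast is the mean of the GEM and spontaneous group means minus the immortalized mean, so it can differ slightly from the difference of the printed means. The fit was tested on simulated data with known changes. Module means average gene-centred values over members. Correlations are over 17 lineages and carry no p. All members are accounted for, and of each further list only genes past the threshold or the 3 with the largest difference per comparison could be named. The members and lists were chosen with earlier results of these data known. Alternatives changed the normalization, the replicate unit, the prior variance, the entries tested, the medium and the lineages included. Python 3.11.15, numpy 2.4.6, pandas 2.3.3, scipy 1.17.1 and matplotlib 3.10.9 were used for the rest.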

Additional observations from a re-analysis of the deposited data

Results flagged for a closer look

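In each group of 5 lineages, a value was noted when its gap to the nearest other value, divided by the group's range, exceeded Dixon's 95% critical value of 0.71. Of 99 groups examined, 9 were noted, and chance alone gives about 1 in 20. Myc83 accounts for 4 of these among the Myc lineages: it was lowest for Egln3, at 8.53 against 10.47 to 11.05 in the other 4, and for Slc2a3, at 5.71 against 5.92 to 5.97, and highest for Car9, at 6.80 against 5.37 to 5.62, and for the mean of the 12 hypoxia-induced genes, at 0.42 against 0.03 to 0.14. MVT2 was highest of the Myc lineages for Eno2, at 8.57 against 6.77 to 7.27. Among the other GEM lineages, 780 was highest for Ldhb, at 9.14 against 6.82 to 7.15, and p1522 for Slc16a3, at 10.45 against 6.38 to 7.20. Among the spontaneous lineages, the 4T family was highest for Car9, at 6.28 against 5.56 to 5.73, and F311 for Ankrd37, at 6.54 against 5.68 to 5.88. Car9 and Ankrd37 lay below their array's median in every line and Slc2a3 in every line but EMT6, so the flags on these genes concern low values. The reasons were not tested.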

How the results depend on the processing

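Each comparison was refitted with 1 choice changed at a time, and leaving out the 3 arrays of smallest SD, as well as the gene-group means in high-glucose lineages alone, was added after seeing the data. Of 290 differences of gene-group means under an alternative, 290 moved by less than 1 SD between lineages, but 17 changed sign. Among them the transporter difference between GEM and spontaneous lineages was 0.02 without EMT6, the hypoxia-gene difference between GEM and spontaneous lineages -0.02 without D2, and that of the factor subunits between Myc and other GEM lineages -0.11 in high-glucose lineages alone. Of 1963 differences of single members under an alternative, 85 had the opposite sign (17 for tumour against immortalized, 37 for GEM against spontaneous, 31 for Myc against other GEM), and none of these was a called difference. The call of Pfkl between tumour and immortalized lineages was lost 7 times with its direction kept. Its adjusted p over all alternatives ran from 0.0180 with every entry of the table to 0.302 without EPH4. One loss came from leaving out the third of entries with the lowest mean (adjusted p = 0.0630). Tpi1 moved from 0.22 to 0.42 between Myc and other GEM lineages in high-glucose lineages alone and with the medium class as a block.

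Counts over all tested probe sets moved more. Tumour against immortalized gave 50 calls, 120 after quantile normalization, 103 with each line as a replicate, 2 without the third of lowest mean, 412 with every entry of the table, and 28 to 413 when 1 lineage was left out, the most without NMUMG. GEM against spontaneous gave 19, then 91 with each line as a replicate and 9 to 32 when 1 lineage was left out. Myc against other GEM gave 2, then 4 with each line as a replicate, 1 in high-glucose lineages alone, and 2 to 15 when 1 lineage was left out, the most without p1522. No paired analysis was possible because the labels give the lines no shared replicate numbers. With 2 immortalized lineages and 1 array per line, only differences that are large against the spread between lineages could pass.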
